A study of Homo sapiens with 6 samples.

Results

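The transcripts described here are those of 10 genes taken by symbol: the coactivators YAP1 and WWTR1, the DNA-binding partners TEAD1, TEAD3 and TEAD4, and the target genes CYR61, CTGF, AMOTL2, LATS2 and AXL. All 10 were found among the 26364 gene symbols of the count files, and all 10 were among the 14665 genes abundant enough to test. CYR61 and CTGF are the older symbols of CCN1 and CCN2, and WWTR1 encodes the protein TAZ. The RNA came from ZR-75-30, an established human breast adenocarcinoma line of luminal type with amplified ERBB2. The cells were infected with either the empty lentivirus, control (pLVX), or the lentivirus carrying CDK12 (pLVX-CDK12), with 3 libraries in each group. No drug treatment, time after infection or clone is given in the labels. The series design calls the libraries biological replicates without saying whether infections were separate, so p-values measure only the spread between these libraries, which may be technical.

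YAP and TAZ have no DNA-binding domain and act on genes through the TEAD factors. The Hippo kinase cascade, ending in LATS1 and LATS2, phosphorylates both coactivators, which keeps them in the cytoplasm or sends them to degradation. Because this control acts on the proteins, transcript counts say nothing of where YAP and TAZ were in the cell. CYR61, CTGF and AMOTL2 are the targets most often read as a sign of YAP and TAZ activity in epithelial cells. AMOTL2 and LATS2 are at the same time inhibitors of the coactivators.

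Library totals ran from 21178163 to 26543653 counts. CDK12 itself ranged from 72.8 to 81.8 CPM under the control virus and from 2009 to 2240 CPM under the CDK12 virus (CPM is counts per 1e6 counts, scaled by TMM), so each library matched its label. Over all genes, 35.1% passed the test at a Benjamini-Hochberg adjusted p of 0.05 in either direction, 16.2% higher and 18.9% lower with the CDK12 virus. The groups' libraries did not overlap for 45.6% of genes. Higher genes made up 46.1% of the calls, against 59.6% with upper-quartile scaling and 61.7% with total counts. The median log2 fold change of all genes was 0.00. All 10 luminal markers listed were present, with KRT8 at 1937 and EPCAM at 191 CPM in the controls, while the mesenchymal marker VIM was under 1 CPM in each library. The summed level of the luminal markers was 14407 to 15097 CPM under the control virus and 12830 to 13407 CPM under the CDK12 virus. ERBB2 was the largest part of this sum, at 8656 and 7357 CPM in group means. Of the 10 markers, 4 fell, 1 rose (MUC1, from 321 to 405 CPM) and 5 did not pass. These are 40% lower and 10% higher, against 18.9% and 16.2% of all genes. GATA3, 1 of the 4 that fell, lost its call in 6 of 14 alternative settings (scalings, filters, tests, a replicate block and libraries left out). These included upper-quartile scaling (adjusted p = 0.0791) and total counts (adjusted p = 0.0954). CDH1 passed as higher with the same scalings (adjusted p = 0.0374 and 0.0316) and without CDK12 replicate 1 (0.0392). ESR1 passed as lower without control replicate 3 (adjusted p = 0.0382). The part of the luminal markers in the results was not tested.

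Of the 10 genes, 3 fell (CYR61, CTGF and AMOTL2), 2 rose (WWTR1 and AXL) and 5 did not pass the test. Falls thus made up 30% of the 10 genes and rises 20%, against 18.9% and 16.2% of all genes tested. The groups' libraries did not overlap for 7 of the 10, against 45.6% of all genes tested. The changes ran from -0.68 to 0.57 on the log2 scale, with a median of -0.08. In these bulk libraries, fewer cells making a transcript and less of it per cell cannot be told apart.

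**Figure D1:**
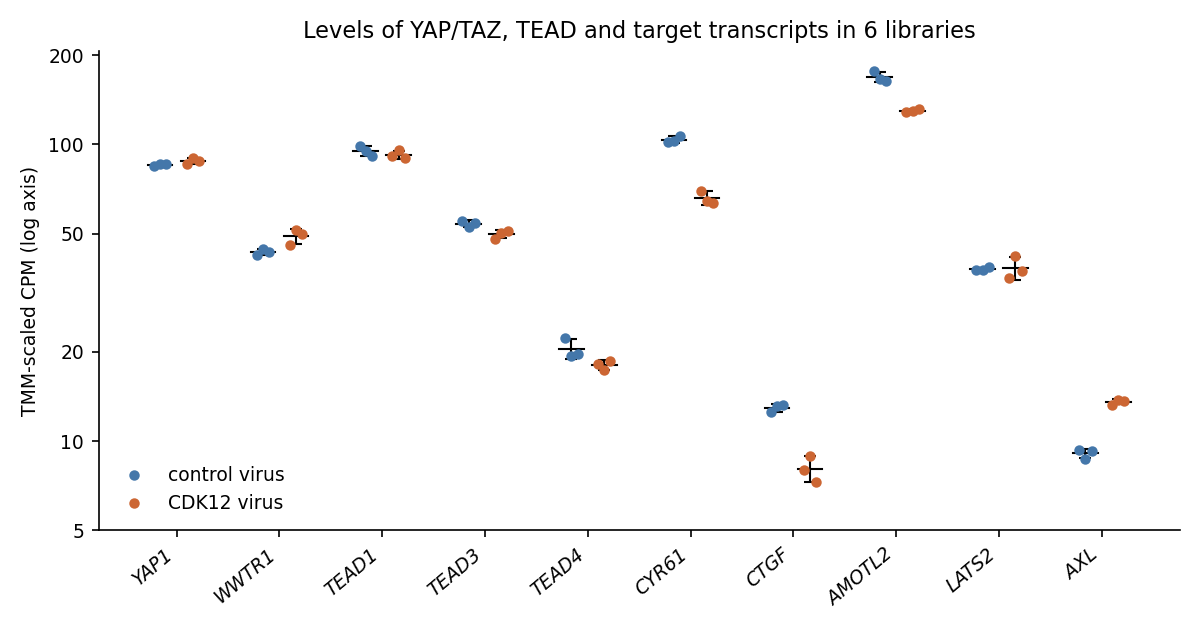
Levels of the 10 transcripts in the 6 libraries, in TMM-scaled CPM on a log axis; each point is a library, and bars give the mean and SD of 3 libraries. CYR61, CTGF and AMOTL2 are lower in all 3 CDK12 libraries than in any control, AXL and WWTR1 are higher in all 3, and the YAP1, TEAD1 and LATS2 groups overlap.

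The coactivator gene YAP1 did not pass the test, and its paralog WWTR1 rose slightly. YAP1 was at 84.6, 85.9 and 85.6 CPM in control libraries 1 to 3 and at 85.7, 90.0 and 87.9 CPM in CDK12 libraries 1 to 3. The ranges overlapped, and the log2 fold change was 0.04 (SE 0.04, adjusted p = 0.488). Its 95% interval, taken for the gene alone, runs from a change of -3.32% to one of 9.65%. WWTR1 was at 42.3, 44.4 and 43.4 CPM in the controls and at 46.0, 51.3 and 49.9 CPM with CDK12. All 3 CDK12 libraries were above all 3 controls, with a mean of 43.4 ± 1.03 against 49.1 ± 2.76 CPM (SD, n = 3 per group). The rise of WWTR1 was 1.13-fold (log2 fold change 0.18, SE 0.05, adjusted p = 0.0133). The WWTR1 call did not hold without control replicate 1 (adjusted p = 0.0606) or without CDK12 replicate 2 (adjusted p = 0.0775). WWTR1-AS1, which overlaps WWTR1 on the other strand, had 21 counts over the 3 controls and 33 over the 3 CDK12 libraries. Without a known strand setting, reads of WWTR1 and WWTR1-AS1 cannot be told apart where they overlap.

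None of the TEAD genes passed the test. TEAD1 was at 98.6, 95.1 and 91.3 CPM in the controls and at 91.6, 95.6 and 89.9 CPM with CDK12, with overlapping ranges (log2 fold change -0.04, SE 0.05, adjusted p = 0.523). TEAD3 was at 55.4, 52.6 and 54.2 CPM in the controls and at 48.1, 50.3 and 51.2 CPM with CDK12. The TEAD3 groups did not overlap, but the difference of -0.12 (SE 0.05) on the log2 scale had an adjusted p of 0.0741. TEAD4 was at 22.2, 19.3 and 19.7 CPM in the controls and at 18.1, 17.3 and 18.6 CPM with CDK12. Here too the groups did not overlap, and TEAD4 lay at the edge of the threshold (log2 fold change -0.18, SE 0.07, adjusted p = 0.0502). Without control replicate 2 the TEAD4 difference was -0.22 with an adjusted p of 0.0354, and without control replicate 1 it was -0.12 with an adjusted p of 0.291. TEAD2, the remaining paralog, was at 13.7 ± 0.48 CPM in the controls and 15.3 ± 0.80 CPM with CDK12 (adjusted p = 0.109). TEAD2 passed with upper-quartile scaling (adjusted p = 0.048) and with total counts (adjusted p = 0.0411), with a positive difference in each case.

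The matricellular genes fell most among the 10. CYR61 encodes a secreted protein that binds integrins and is induced quickly by growth factors and by stretch. It was at 102, 103 and 107 CPM in the controls and at 69.9, 64.7 and 63.4 CPM with CDK12. Every CDK12 library was well under every control, and the level fell by 36.3% (log2 fold change -0.65, SE 0.05, adjusted p = 1.87e-11). CTGF, a secreted relative of CYR61 that promotes matrix production, was far less abundant, with 273 to 325 counts per control library and 175 to 217 per CDK12 library. Its level was 12.5, 13.1 and 13.2 CPM in the controls and 7.99, 8.94 and 7.30 CPM with CDK12. The CTGF groups did not overlap, and the level fell by 37.6% (log2 fold change -0.68, SE 0.09, adjusted p = 1.09e-06). The ratio of CYR61 to CTGF counts within a library was 8.13, 7.83 and 8.10 in the controls and 8.75, 7.24 and 8.70 with CDK12. These ratios overlapped, and the mean log2 difference of 0.03 had an exact two-sided permutation p of 1 (3 against 3 libraries).

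None of the other CCN genes passed the test as lower. NOV, which encodes the family member CCN3, rose from 87.4 ± 1.40 to 96.8 ± 1.34 CPM (log2 fold change 0.15, adjusted p = 0.00999). WISP1, WISP2 and WISP3 were between 0.857 and 5.97 CPM in group means and did not pass the test. Of the 6 CCN genes, 2 therefore fell (CYR61 and CTGF, described above), 1 rose and 3 did not pass. These are 33.3% lower and 16.7% higher, against 18.9% and 16.2% of all genes.

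AMOTL2 was the most abundant of the 10 by counts. It encodes an angiomotin that holds YAP at junctions and in the cytoplasm. Its level was 176, 167 and 164 CPM in the controls and 128, 130 and 131 CPM with CDK12, again without overlap. The level fell by 23.2% (log2 fold change -0.38, SE 0.04, adjusted p = 6.51e-08). AMOT, the founding angiomotin, also fell, from 24.2 ± 0.76 to 19.0 ± 1.04 CPM (log2 fold change -0.35, adjusted p = 0.000168). AMOTL1 was at 25.5 ± 1.6 and 25.9 ± 0.59 CPM and did not pass (adjusted p = 0.798). The AMOTL2 to AMOTL1 ratio within a library, which no scaling of the libraries can alter, was 6.53, 6.51 and 6.90 in the controls and 4.85, 5.14 and 5.08 with CDK12.

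LATS2, the Hippo kinase that YAP also induces, did not pass the test. It was at 37.8, 37.8 and 38.5 CPM in the controls and at 35.3, 42.0 and 37.3 CPM with CDK12. The CDK12 libraries lay on both sides of the controls (log2 fold change 0.00, SE 0.06, adjusted p = 0.964), and the 95% interval runs from -8.04% to 9.42%. LATS1 was at 68.0 ± 3.52 and 71.9 ± 2.63 CPM (adjusted p = 0.221).

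AXL moved against CYR61 and CTGF. AXL is a receptor tyrosine kinase of the TAM family whose ligand is GAS6, and it is known from mesenchymal and drug-resistant tumour cells. It was at 9.31, 8.73 and 9.25 CPM in the controls and at 13.3, 13.8 and 13.6 CPM with CDK12. The groups were far apart, and AXL rose 1.49-fold (log2 fold change 0.57, SE 0.08, adjusted p = 4.14e-06). The AXL to CYR61 ratio within a library was 0.0915, 0.0852 and 0.0866 in the controls and 0.190, 0.213 and 0.215 with CDK12. TYRO3, MERTK and GAS6 did not pass (adjusted p = 0.0713, 0.638 and 0.815), and PROS1, with 0 to 4 counts per library, was not tested. TYRO3 was lower with an adjusted p of 0.0347 when CDK12 replicate 3 was left out.

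Mesenchymal markers gave no common direction beside the rise of AXL. Of 16 such markers, 11 were under 1 CPM in every library, VIM, CDH2 and TWIST1 among them, and 6 passed the filter. COL1A1 (48.2 to 63.8 CPM) and SNAI1 (2.99 to 4.33 CPM) rose, while FN1 (87.7 to 65.3 CPM), SNAI2 (4.69 to 3.38 CPM) and COL3A1 (0.602 to 0.109 CPM) fell, in group means. Of the 6 tested, 50% thus fell and 33.3% rose, against 18.9% and 16.2% of all genes. The summed level of the 16 markers was 142 to 153 CPM under the control virus and 135 to 148 under the CDK12 virus. The part of these markers in the AXL result was not tested. Of 7 tested basal markers, 5 fell and 1, ACTA2, rose (71.4% and 14.3%, against 18.9% and 16.2% of all genes). With upper-quartile scaling, with total counts or without CDK12 replicate 2, 2 of them rose. Over all genes, rises were 59.6%, 61.7% and 45.1% of the calls in these settings, against 46.1% in the main fit. TP63 fell from 2.26 ± 0.14 to 0.280 ± 0.04 CPM and ITGB4 from 81.0 ± 4.90 to 56.1 ± 6.07 CPM. The summed level of the 10 basal markers was 160 to 173 CPM under the control virus and 125 to 132 under the CDK12 virus, with KRT5, KRT14, KRT17 and CNN1 under 1 CPM throughout. The summed level of 8 endothelial and leukocyte markers was 7.96 to 8.15 CPM under the control virus and 4.05 to 4.57 under the CDK12 virus. Of their 3 tested genes 1 fell, or 33.3% against 18.9% of all genes. This was PTPRC, the leukocyte antigen CD45, from 2.96 ± 0.11 to 0.358 ± 0.06 CPM (log2 fold change -3.02, adjusted p = 4.51e-11). VWF (adjusted p = 0.062) and CD68 (adjusted p = 0.704) did not pass. VWF passed as lower without control replicate 2 (adjusted p = 0.0369) or CDK12 replicate 3 (adjusted p = 0.0266). PECAM1, CDH5, KDR, CD3E and LYZ were under 1 CPM in every library. The part of both marker lists in the fall of CYR61, CTGF and AMOTL2 was not tested.

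Within libraries, 6 ratios were compared by an exact two-sided permutation test. With 3 libraries in each group, its smallest possible p is 0.1. The YAP1 to WWTR1 ratio was 2.00, 1.94 and 1.97 in the controls and 1.87, 1.75 and 1.76 with CDK12, so that WWTR1 gained on YAP1 in all 3 CDK12 libraries. For YAP1/WWTR1, AMOTL2/AMOTL1 and AXL/CYR61 the groups did not overlap and p was 0.1, or 0.2 after Benjamini-Hochberg adjustment over the 6 ratios. The mean log2 differences were -0.13, -0.40 and 1.23 in that order. The CYR61/CTGF, TEAD1/TEAD4 and LATS2/LATS1 ratios overlapped between the groups.

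**Figure D2:**
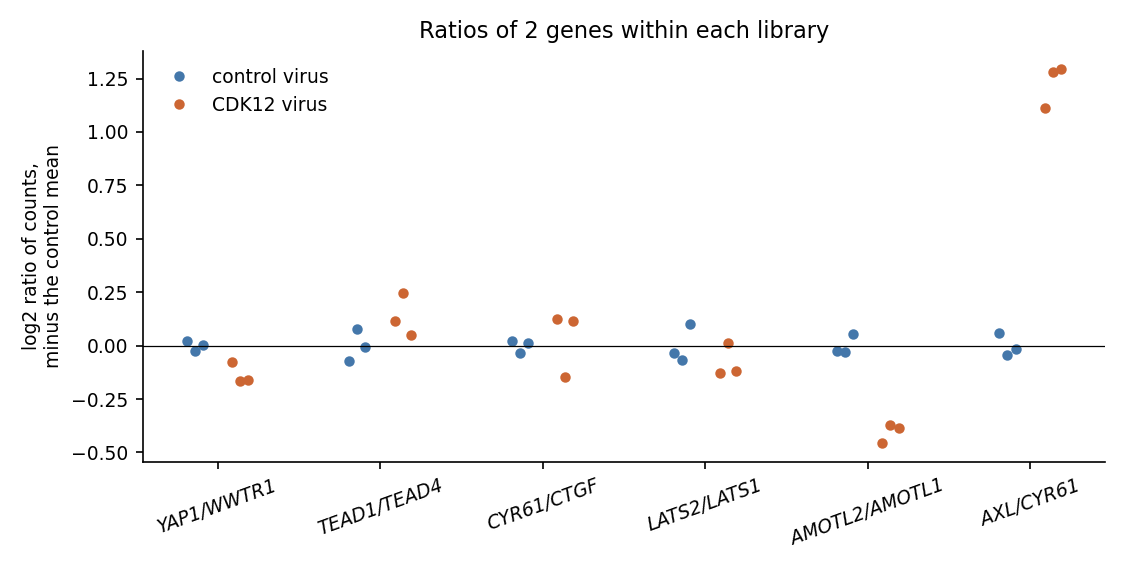
Log2 ratio of the counts of 2 genes within each library, with the mean of the 3 control libraries set to 0; each point is a library. AXL/CYR61 stands 1.23 above the controls on average and AMOTL2/AMOTL1 0.40 below (a log2 difference of -0.40), while the CYR61/CTGF groups overlap.

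Levels of different genes can be compared only per length of transcript. CPM per kilobase of exon (exon lengths from GENCODE 29) were highest for CYR61 in the controls, at 42.3 ± 1.10, followed by AMOTL2 at 28.3 ± 1.08. TEAD3 followed at 17.7 ± 0.46, YAP1 at 13.6 ± 0.11, TEAD1 at 9.24 ± 0.35, TEAD4 at 8.99 ± 0.69, LATS2 at 6.82 ± 0.07, CTGF at 5.53 ± 0.15 and WWTR1 at 5.16 ± 0.12. AXL was lowest at 1.77 ± 0.06. TEAD1 and TEAD4 overlapped in their library values, so their order is not resolved, and TEAD2 was below both at 4.59 ± 0.16. TEAD3 was thus the highest TEAD transcript per length in this line. With CDK12, CYR61 was at 26.9 ± 1.40 and AMOTL2 at 21.7 ± 0.24 on this scale, still the highest of the 10. CTGF, at 3.45 ± 0.35, was then below WWTR1 at 5.83 ± 0.33. When the longest transcript was used as the length, WWTR1 came to 8.62 in the controls and stood above LATS2 at 6.90 and CTGF at 5.53, so its place depends on the gene model.

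TEAD factors bind the motif GGAATG, read as CATTCC on the other strand, and the promoters of the genes are shown to set this motif beside the counts. The windows are the 250 bases before the RefSeq start of transcription on GRCh38.p14, of which 7 of the 10 genes had one in the table (not CYR61, TEAD1 or TEAD4). CTGF, which fell, lies at chr6:131951373-131951622 on the minus strand and holds 3 matches, the first bases of which are 169, 104 and 95 bases before the start. YAP1, which did not pass the test, lies at chr11:102110197-102110446 on the plus strand and holds 1 match, 162 bases before the start. AMOTL2, which fell, lies at chr3:134375418-134375667 on the minus strand with no match. AXL, which rose, lies at chr19:41218973-41219222 on the plus strand, also with no match. Each window is printed 5′ to 3′ along the gene, in lower case with the matches in capitals.
CTGF: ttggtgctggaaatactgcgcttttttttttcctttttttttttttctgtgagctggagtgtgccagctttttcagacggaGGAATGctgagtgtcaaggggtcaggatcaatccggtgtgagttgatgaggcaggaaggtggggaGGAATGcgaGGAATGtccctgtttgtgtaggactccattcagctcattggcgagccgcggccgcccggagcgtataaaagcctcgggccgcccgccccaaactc
YAP1: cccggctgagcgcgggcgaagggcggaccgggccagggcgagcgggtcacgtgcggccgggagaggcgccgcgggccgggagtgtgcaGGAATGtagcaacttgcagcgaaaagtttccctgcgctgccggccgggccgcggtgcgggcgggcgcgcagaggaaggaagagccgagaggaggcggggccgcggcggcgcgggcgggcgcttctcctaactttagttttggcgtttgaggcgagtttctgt
AMOTL2: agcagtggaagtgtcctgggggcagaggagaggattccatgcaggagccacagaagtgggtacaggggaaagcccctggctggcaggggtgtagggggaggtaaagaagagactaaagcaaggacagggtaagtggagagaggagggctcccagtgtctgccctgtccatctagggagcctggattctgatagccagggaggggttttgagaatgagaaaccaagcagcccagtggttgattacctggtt
AXL: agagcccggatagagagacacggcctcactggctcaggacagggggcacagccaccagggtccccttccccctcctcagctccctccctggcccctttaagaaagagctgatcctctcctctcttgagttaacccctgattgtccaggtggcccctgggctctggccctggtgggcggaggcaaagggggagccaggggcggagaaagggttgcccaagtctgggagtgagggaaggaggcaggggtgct
Over all 35116 promoter windows of this length, 11.9% held at least 1 match and 0.94% held 2 or more. Of the 7 windows, 2 held a match, those of CTGF and YAP1. The same 2 held the longer form GGAATGT, searched on both strands, which 2.96% of all windows hold. A match is a run of letters and not a shown binding site, and TEAD factors often act from enhancers outside such windows.

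**Figure D3:**
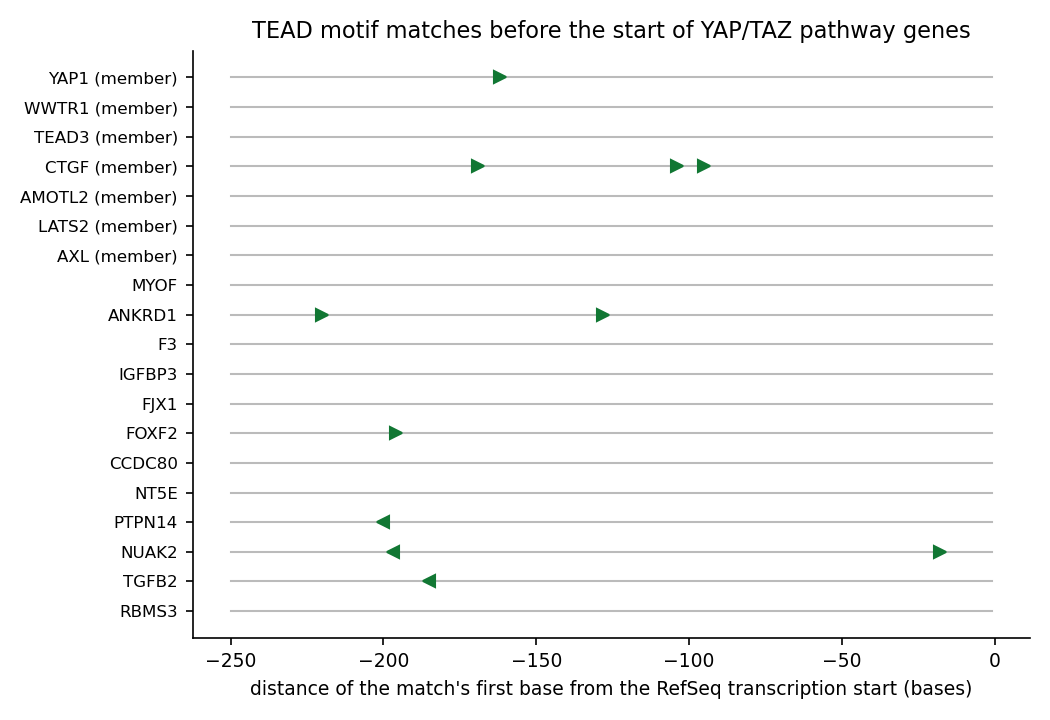
Matches to the TEAD motif in the 250 bases before the RefSeq start of 7 of the 10 genes (marked as members) and of other genes of the target signature; right-pointing marks are matches on the gene's own strand and left-pointing marks on the other, placed at their first base in the window. CTGF carries 3 matches and ANKRD1 and NUAK2 carry 2 each, while AMOTL2 and AXL carry none.

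Most genes of a wider list of YAP/TAZ targets fell. The list holds 22 genes used in tumours as a signature of YAP and TAZ activity, 5 of them among the 10 genes above. Of 21 tested, 15 fell, 1 rose (AXL) and 5 did not pass; FOXF2 had 0 counts throughout. Falls made up 71.4% of the tested list, against 18.9% of all genes, and the median log2 fold change was -0.36. Without the 5 genes already described, 12 of 16 fell and none rose, with a median of -0.34. The count of falls was 15 in each of the 14 alternative settings too.

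TGFB2, which encodes a ligand of the TGF-beta pathway, fell 2.13-fold, from 54.0 ± 0.88 to 25.3 ± 1.95 CPM (adjusted p = 4.61e-14). MYOF, a membrane repair protein of the ferlin family, was the most abundant gene of the list and fell from 561 ± 7.87 to 399 ± 8.57 CPM (adjusted p = 9.54e-11). RBMS3, an RNA-binding protein, had 56, 52 and 49 counts in the controls and 5, 8 and 5 with CDK12 (log2 fold change -3.24, SE 0.28, adjusted p = 4.89e-10). It was the largest fall of the list, at a low level. ANKRD1, a classical YAP target in muscle and epithelium named here after its values were seen, had 74, 62 and 72 counts in the controls and 34, 35 and 27 with CDK12 (log2 fold change -1.25, SE 0.17, adjusted p = 2.52e-06). DOCK5, FJX1 and CRIM1, also named after their values were seen, fell with log2 changes of -0.60, -0.54 and -0.39. Besides LATS2, the genes that did not pass were GADD45A, IGFBP3, CCDC80 and NT5E, named here as the remainder of the list. GADD45A was at 62.6 ± 1.42 and 61.6 ± 2.44 CPM, and CCDC80 and NT5E had at most 25 counts per library.

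**Figure D4:**
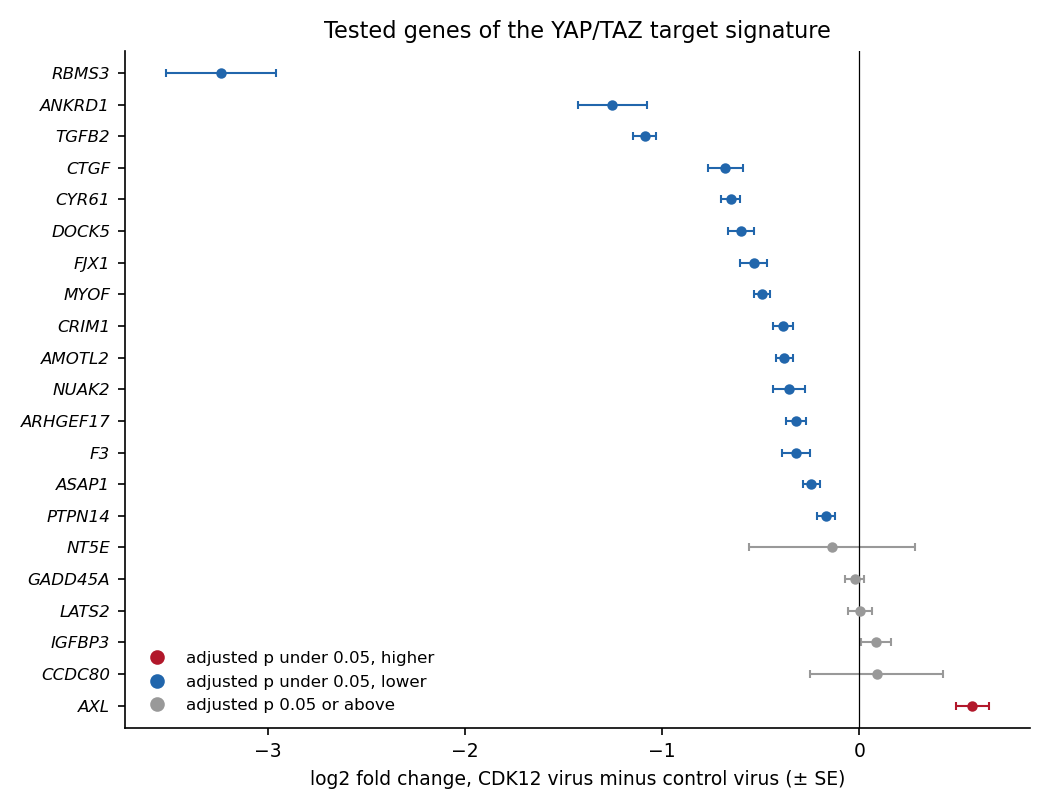
Log2 fold change (CDK12 virus minus control virus, ± SE) of the 21 tested genes of the YAP/TAZ target signature, coloured by the edgeR call at an adjusted p of 0.05. From RBMS3 at -3.24 to PTPN14 at -0.17, 15 genes are lower, and AXL at 0.57 is the 1 higher gene.

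Upstream Hippo genes fell more often than they rose. Of 49 tested genes on 3 lists, 18 fell, 3 rose and 28 did not pass. The lists hold kinases and scaffolds, proteins that bind or restrain YAP and TAZ (or, as AJUBA, LATS), and inputs from polarity and adhesion. The median log2 fold change of the 49 genes was -0.07. Falls made up 36.7% and rises 6.12% of them, against 18.9% and 16.2% of all genes. AMOTL2 and LATS2, described above, are among the 49. Without them, 17 of 47 fell and 3 rose, or 36.2% and 6.38%. With upper-quartile scaling or total counts, 5 of the 49 genes rose and 16 fell. Over all 14665 genes tested, 3164 rose and 2144 fell with upper-quartile scaling, and 3324 and 2064 with total counts. With TMM these counts were 2371 and 2772. Among the Hippo genes, the count of rises was 1 without control replicate 3 and 5 without CDK12 replicate 1. In the latter setting MOB1B (adjusted p = 0.0353) and TAOK1 (adjusted p = 0.0237), named here after their values were seen, passed as higher.

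Among 22 kinases and scaffolds, 7 fell and 3 rose, or 31.8% and 13.6% against 18.9% and 16.2% of all genes. Without control replicate 3 only 1 of them rose, and without CDK12 replicate 1 the count was 4. The median log2 fold change of the 22 genes was 0.007, against 0.003 over all genes. Of the falls, MAP4K4 lost its call in 6 of the 14 alternative settings. MAP4K2 passed as lower in 1 setting, without CDK12 replicate 3 (adjusted p = 0.0225). The core kinases STK3 and STK4 (MST2 and MST1) did not pass, at 27.0 and 27.6 CPM for STK3 and 50.5 and 50.4 CPM for STK4 in group means, nor did MOB1A (adjusted p = 0.437). STK3, STK4, MOB1A, MAP4K4 and MAP4K2 were named after their values were seen, as were PTPN14, VGLL4, EPCAM, CDH1 and ESR1. SAV1, the scaffold that joins MST to LATS kinases, rose from 37.8 ± 0.63 to 44.9 ± 2.57 CPM (log2 fold change 0.25, adjusted p = 0.00115). The other rises were STK38L, a LATS-related kinase (0.16), and MAP4K5 (0.13). The STK38L call was lost without control replicate 3 (adjusted p = 0.111) or CDK12 replicate 2 (adjusted p = 0.0707). The MAP4K5 call was lost with the DESeq2 Wald test (adjusted p = 0.0637), with no filter (adjusted p = 0.0537) and without any 1 of 4 libraries: the 3 controls (adjusted p = 0.0697, 0.0689 and 0.131) or CDK12 replicate 1 (adjusted p = 0.141). FRMD6, an upstream activator related to NF2, fell from 38.9 ± 0.33 to 28.7 ± 1.26 CPM (log2 fold change -0.44, adjusted p = 1.29e-06). NF2 (merlin), WWC1 (KIBRA) and TAOK2, which also act upstream of LATS, fell with log2 changes of -0.21, -0.19 and -0.21.

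Of 13 tested genes on the list of proteins that bind or restrain YAP and TAZ, 6 fell and none rose, or 46.2% lower against 18.9% of all genes. Besides AMOTL2 and AMOT the falls included ZYX, a focal adhesion protein (log2 fold change -0.33), and AJUBA, a LIM protein that holds LATS back (-0.25). PTPN14, a phosphatase that binds YAP and is in the target signature too, also fell (-0.17). Because AJUBA restrains LATS, the genes of this list do not share 1 role. VGLL4, a TEAD cofactor that competes with YAP, was at 44.7 and 42.8 CPM in group means and did not pass (adjusted p = 0.369). VGLL1 and VGLL3 had at most 11 counts per library and VGLL2 at most 1, and none of them was tested. Among 14 polarity and adhesion genes, 5 fell and none rose, or 35.7% lower and 0% higher against 18.9% and 16.2% of all genes. In either direction, 35.1% of all genes passed. CDH1 passed as higher with upper-quartile scaling (adjusted p = 0.0374), with total counts (0.0316) and without CDK12 replicate 1 (0.0392). FAT1, an atypical cadherin, fell from 684 ± 45.6 to 512 ± 28.6 CPM and its relative FAT4 from 2.62 ± 0.35 to 0.347 ± 0.15 CPM. SCRIB and LLGL2, of the basolateral polarity complex, fell with log2 changes of -0.27 and -0.19. LLGL1, the least certain of the 5, had an adjusted p of 0.0485 and lost its call in 11 of the 14 alternative settings.

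**Figure D5:**
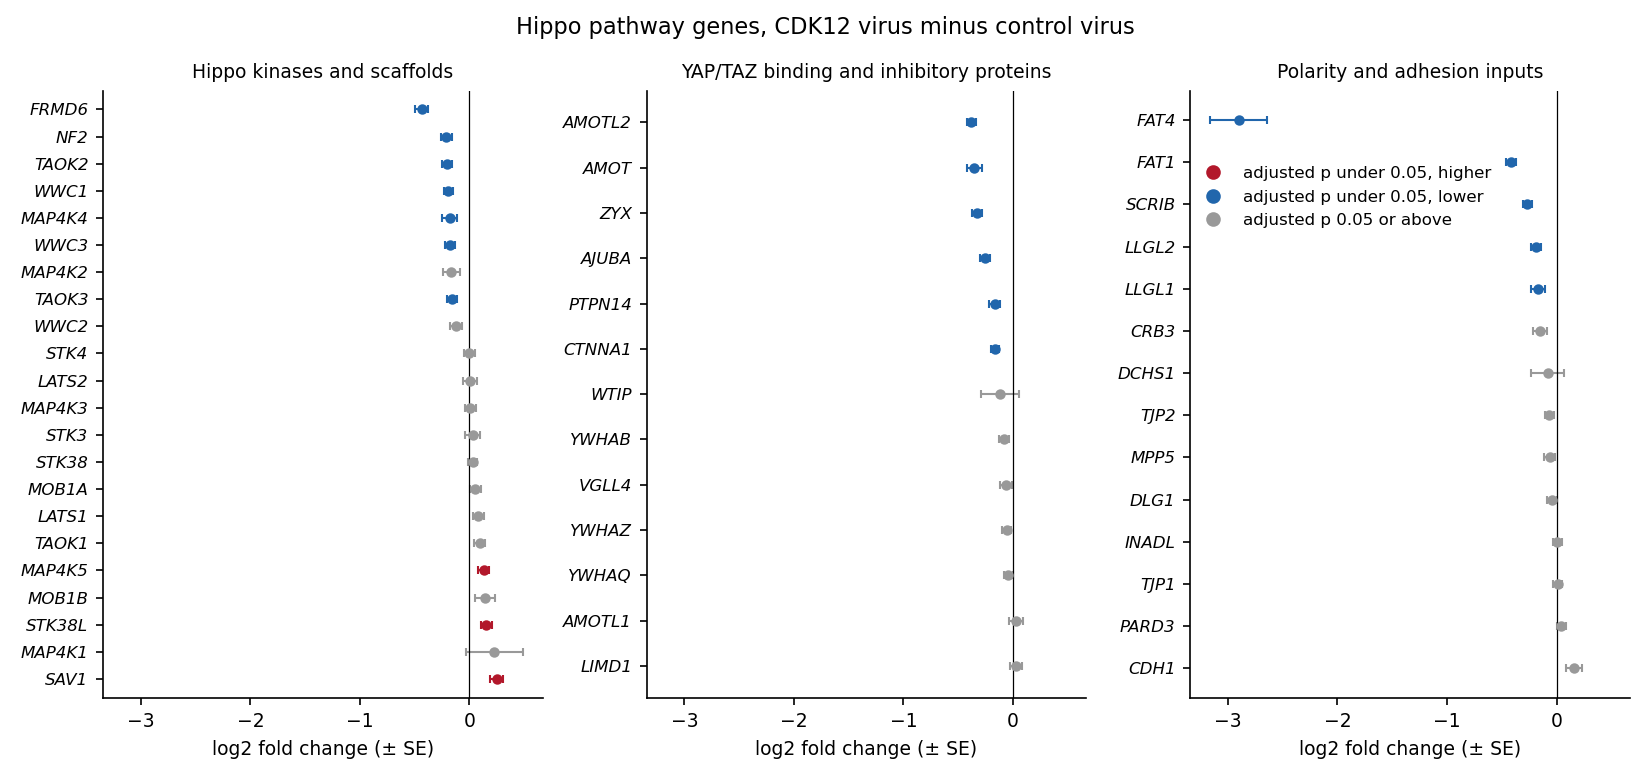
Log2 fold change (CDK12 virus minus control virus, ± SE) of tested Hippo pathway genes in 3 groups by role, coloured by the edgeR call at an adjusted p of 0.05. Apart from FAT4 at -2.90, all changes lie between -0.44 (FRMD6) and 0.25 (SAV1).

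CYR61 and CTGF are also targets of other factors, and those lists were counted beside them. Of 19 tested targets of SRF and its actin-regulated cofactors MRTF, 14 fell, 2 rose (ACTA2 and TAGLN) and 3 did not pass. These are 73.7% lower and 10.5% higher, against 18.9% and 16.2% of all genes. The list's median log2 fold change was -0.28. ACTB, encoding beta-actin, fell from 3420 ± 128 to 2355 ± 82.0 CPM and MYH9, a non-muscle myosin, from 1296 ± 43.2 to 912 ± 55.5 CPM. TAGLN2 and FLNA fell with log2 changes of -0.38 and -0.37. Of 9 AP-1 subunits, which bind DNA beside TEAD at many enhancers, 3 fell and 1 rose. In all 44.4% of them passed, against 35.1% of all genes, and the list's median log2 fold change was -0.05. JUN fell from 104 ± 4.64 to 70.1 ± 3.42 CPM, and JUNB and JUND fell with log2 changes of -0.30 and -0.24. ATF3 rose (0.16), a call that was lost without control replicate 1 (adjusted p = 0.088) or CDK12 replicate 1 (adjusted p = 0.0603). FOS, FOSB, FOSL1, FOSL2 and BATF did not pass. The part of SRF and AP-1 in the fall of the targets was not tested.

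The genes with the profile most like that of CYR61 over the 6 libraries were CACNG4, KRT4, EDN1, RAB32 and S100A16. Likeness was the root-mean-square difference between log2 CPM profiles centred on their own means, over 9615 genes with a mean of at least 10 CPM. It was 0.0341 for CACNG4, a calcium channel subunit, and 0.0443 for S100A16, the fifth. EDN1, which encodes endothelin 1, went from 46.8 to 29.1 CPM in group means, and KRT4 from 61.8 to 39.7 CPM. The 5 genes were chosen for a profile like that of CYR61, so their falls follow from the choice and are no separate result.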

How the data were processed

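Each of the 6 libraries has 1 table, deposited by the authors, of unnormalized counts for every symbol. Per the submitters' processing notes, the authors used CASAVA 1.8, STAR 2.6.0c and featureCounts (Subread 1.6.2) with the hg19 build; which strand setting and annotation they used is not stated here, so reads where antisense genes overlap cannot be told apart. Per the labels' protocols, libraries were stranded and polyA-captured.

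Genes were kept with filterByExpr (minimum count 10, total 15) and tested with edgeR 4.0.16 (quasi-likelihood F test, TMM, group as the only term, two-sided). P-values were adjusted by Benjamini-Hochberg over all 14665 genes. The SE is the log2 fold change over the square root of F. A count of 0 allows up to 3 counts, or 0.113 to 0.142 CPM (counting error only).

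The members and lists were chosen with earlier results of these data known, and list counts carry no test. The naming rule took the 10 genes, their families, up to 4 called genes per list and direction, and the 5 most like CYR61; others are marked or complete a short list. Alternatives were 3 scalings, 2 filters, DESeq2 1.42.0, limma-voom (3.58.1), the replicate block and leaving out each library. Lengths came from GENCODE 29 and promoters from RefSeq, both GRCh38 and not the hg19 build of the counts. Proteins were not analysed here.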

Additional observations from a re-analysis of the deposited data

How the results depend on the processing

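CYR61, CTGF, AMOTL2 and AXL kept their direction and their call in all 14 alternatives, with log2 fold changes of -0.69 to -0.61, -0.76 to -0.61, -0.40 to -0.34 and 0.54 to 0.62. YAP1, TEAD1, TEAD3 and LATS2 passed in none. With 1 library left out, the WWTR1 log2 fold change ran from 0.14 to 0.22 (adjusted p from 0.00264 to 0.0775), the TEAD4 log2 fold change from -0.22 to -0.12 (adjusted p from 0.0354 to 0.291), and the members called higher from 1 to 2. The cause was not tested. Same-numbered libraries did not deviate together (r = -0.07, 0.06 and 0.03 for numbers 1 to 3). With 3 libraries in each group, such correlations cannot show whether the numbers pair the samples. With the replicate number as a block, TEAD4 was at -0.18 with an adjusted p of 0.0453, no other of the 10 genes changed its call, and 5106 genes passed in all against 5143. Depth limits CTGF, AXL and the low genes most: a library held 175 to 357 counts of CTGF or AXL.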
